A study of Mus musculus with 8 samples.

Results

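RNA recovered with DCP1A was searched for the mRNAs that encode the writers, the maintenance factors and the erasers of DNA methylation. DCP1A activates mRNA decapping and is a component of cytoplasmic processing bodies. The set is defined by gene name and function, with no measured value in its rule: Dnmt1, Dnmt3a, Dnmt3b, Dnmt3l, Uhrf1, Tet1, Tet2, Tet3 and Dppa3. All 9 were found among the 23107 genes of the count table, under these symbols, which also serve as its identifiers. The tissue was mouse ovarian cortex at postnatal day 8, and 2 groups were compared: 4 libraries of RNA immunoprecipitated with an antibody to DCP1A (RIP 1 to RIP 4) and 4 libraries of input RNA (input 1 to input 4). The study asked which RNAs DCP1A contacts in primary oocytes. Strain and genotype are not given in the labels, nor whether replicates came from separate animals or pools, so a p-value here reflects how far these libraries spread, and part of that spread may be technical. The 8 libraries include none with a control antibody, so nonspecific recovery was not measured.

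DNA methylation in mammals is copied after replication by DNMT1, which UHRF1 recruits by binding hemimethylated DNA. New methylation is set by DNMT3A and DNMT3B, in germ cells together with the catalytically inactive cofactor DNMT3L, and the TET enzymes oxidise methylcytosine as a step towards its removal. In the mouse female germ line, methylation is erased before birth and set again while oocytes grow after birth, and DPPA3 (also called STELLA or PGC7) is a maternal factor that shields methylated DNA from TET3 in the zygote and restrains UHRF1 in the oocyte.

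Counts were given per gene and not per transcript, and several of these genes start at more than 1 place. Which of these transcripts the counting included is not known. Of the 9 genes, 8 had promoter windows in the RefSeq table (build GRCm38.p6, 250 bases before to 50 after each start), 15 windows in all. Windows are shown for the genes whose alternative starts lie in DNA of different CpG content, since the counts cannot say which start a bound transcript came from. Sequences run 5′ to 3′ on the strand of the gene, and capitals mark CpG dinucleotides, the bases that the encoded enzymes act on. Dnmt1, on the minus strand, had its most upstream start (chr9:20959839-20960138) and another 7265 bases downstream of it (chr9:20952574-20952873).
Dnmt1 upstream start: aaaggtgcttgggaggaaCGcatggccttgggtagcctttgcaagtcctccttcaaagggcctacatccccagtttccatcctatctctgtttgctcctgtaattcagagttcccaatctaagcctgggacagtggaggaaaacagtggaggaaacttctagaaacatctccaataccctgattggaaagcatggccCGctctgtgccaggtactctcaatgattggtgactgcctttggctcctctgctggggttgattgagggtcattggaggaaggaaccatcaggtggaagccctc
Dnmt1 downstream start: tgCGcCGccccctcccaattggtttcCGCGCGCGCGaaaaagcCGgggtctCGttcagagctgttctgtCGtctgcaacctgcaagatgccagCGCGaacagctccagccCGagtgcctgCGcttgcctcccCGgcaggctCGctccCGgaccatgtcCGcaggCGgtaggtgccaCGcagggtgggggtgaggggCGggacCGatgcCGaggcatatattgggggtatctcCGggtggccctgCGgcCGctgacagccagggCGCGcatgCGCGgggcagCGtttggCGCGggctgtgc
Oocytes are known to make a DNMT1 form, DNMT1o, from an upstream first exon. The upstream window held 2 CpGs and the downstream window shown 33, against a median of 7 over the 32851 windows of the table. A Dnmt1 start between them, 6909 bases from the upstream one, had a window with 12 CpGs that is not shown. Dnmt3a, on the plus strand, had a CpG-dense first start among its windows (chr12:3806730-3807029) and a start 84764 bases further on (chr12:3891494-3891793). The annotated locus begins upstream of that first start, at 3801559, and the windows do not cover its beginning. The shorter isoform DNMT3A2 is known to start from an internal promoter.
Dnmt3a first start: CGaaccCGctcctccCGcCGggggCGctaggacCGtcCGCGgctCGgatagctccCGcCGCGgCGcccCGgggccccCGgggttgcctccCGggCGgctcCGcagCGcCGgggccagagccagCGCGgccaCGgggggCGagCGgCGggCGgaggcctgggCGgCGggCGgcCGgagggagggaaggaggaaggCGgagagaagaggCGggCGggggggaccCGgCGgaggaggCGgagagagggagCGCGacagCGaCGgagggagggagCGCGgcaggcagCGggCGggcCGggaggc
Dnmt3a internal start: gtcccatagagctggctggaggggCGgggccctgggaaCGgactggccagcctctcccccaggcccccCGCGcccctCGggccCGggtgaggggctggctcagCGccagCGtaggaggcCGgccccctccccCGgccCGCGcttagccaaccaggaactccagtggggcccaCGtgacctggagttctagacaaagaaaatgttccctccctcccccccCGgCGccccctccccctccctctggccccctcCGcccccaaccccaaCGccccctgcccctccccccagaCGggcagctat
These windows held 46 and 18 CpGs. A further Dnmt3a start, 180 bases after the first, had a window with 47 CpGs that is not shown. Uhrf1, on the plus strand, had starts 976 bases apart (chr17:56303087-56303386 and chr17:56304063-56304362).
Uhrf1 first start: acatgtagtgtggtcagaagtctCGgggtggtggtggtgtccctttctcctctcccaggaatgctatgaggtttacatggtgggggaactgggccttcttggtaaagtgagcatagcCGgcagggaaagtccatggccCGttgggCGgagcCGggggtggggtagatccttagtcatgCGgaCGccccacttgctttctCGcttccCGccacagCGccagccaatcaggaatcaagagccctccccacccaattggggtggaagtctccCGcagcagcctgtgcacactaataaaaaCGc
Uhrf1 second start: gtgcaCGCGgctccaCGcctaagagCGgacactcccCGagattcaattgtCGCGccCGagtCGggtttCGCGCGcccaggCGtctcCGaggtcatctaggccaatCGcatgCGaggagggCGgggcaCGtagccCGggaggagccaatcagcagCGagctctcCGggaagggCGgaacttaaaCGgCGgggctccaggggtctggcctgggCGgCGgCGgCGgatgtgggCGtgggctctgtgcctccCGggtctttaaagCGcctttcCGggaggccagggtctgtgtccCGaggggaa
They held 12 and 33 CpGs. The GC box (GGGCGG, either strand) was present in 12 of the 15 windows and in 35.7% of all windows of the table, and the TATA box (TATAAA, either strand) in 0 of 15 and 13.6%. These matches describe letters in a window and not bound sites.

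RIP libraries held 16325387 to 21269891 counts and input libraries 13098153 to 25757618. The row for ribosomal RNA, Rn45s, took 11.5% to 19.5% of counts in RIP and 4.57% to 12.5% in input. Marker genes of the tissue were present: the summed level of 15 oocyte markers was 1962 to 2567 CPM in RIP (counts relative to library size, scaled with TMM factors) and 2145 to 2944 CPM in input, and that of 12 granulosa markers was 1993 to 3035 CPM in RIP and 1786 to 3316 CPM in input. Both sets overlapped between the groups, and none of the markers in either list was at 0 in all libraries. The input libraries numbered 1 and 2 had about as many counts as each other, as did those numbered 3 and 4. RIP totals did not group in this way, at 16325387, 21269891, 20199164 and 18658435 counts in RIP 1 to 4. Earlier results of these data grouped the libraries by these pairs of numbers, so fits within each pair are given beside the results. Over all genes, RIP 1 was the library most often at an end of its group, the highest or the lowest RIP library for 75.2% of genes, and for 5 of the 8 genes that could be tested (lowest for Dnmt1, Dnmt3b, Tet1 and Dppa3, highest for Tet3). Without it the log2 fold changes of the 8 (RIP over input) lay between -0.44 for Dppa3 and 0.60 for Uhrf1. Input 3 was at an end of the inputs for 54.6% of all genes, close to the 56.7% of input 2, and for 6 of the 8, and results are also given without it.

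Of the 9 genes, 8 passed the filter on low counts and were tested, with 170 to 17051 counts in a library, and Dnmt3l was not. None of the 8 passed edgeR's quasi-likelihood test after Benjamini-Hochberg adjustment over all 14667 genes tested, with adjusted p between 0.622 and 0.996. Over all genes, 0.0409% were called at the adjusted threshold of 0.05. These were 6 genes, all lower in RIP, and 0 were called higher in RIP. By their estimates 4 of the 8 lay on the RIP side and 4 on the input side, with a median log2 fold change of 0.10 (RIP over input), where the median of all genes was -0.02. Uhrf1 and Dppa3 had the largest estimates, in opposite directions.

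**Figure D1:**
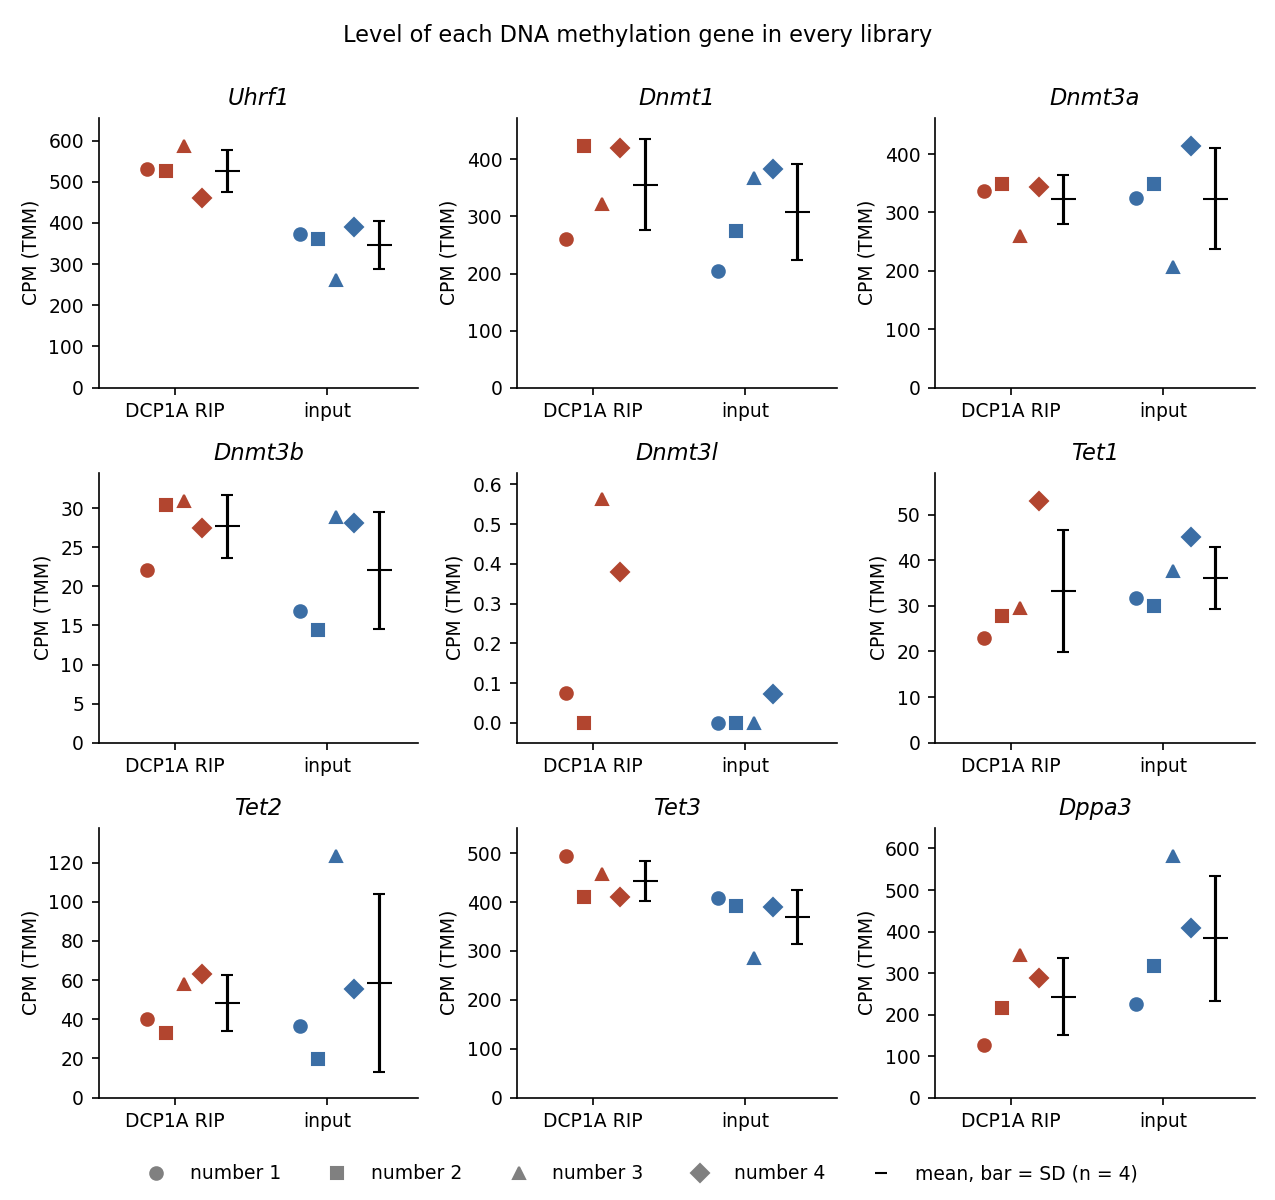
Level of each of the 9 genes in each library, in TMM-scaled CPM on a linear axis from 0. DCP1A RIP is on the left and input on the right, symbols mark the library number, and black marks give mean and SD over 4 libraries except for Dnmt3l, which had few counts. All 4 RIP libraries lie above all 4 inputs for Uhrf1, and for Tet3 by a margin too small to see.

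Uhrf1, the maintenance cofactor (mm10 chromosome 17, 56303337 to 56323486), had 531, 525, 586 and 461 CPM in RIP 1 to 4, against 374, 362, 260.4 and 391 CPM in input 1 to 4. Every RIP library was above every input, with input 3 the lowest of all and a gap of 1.18-fold between the lowest RIP library and the highest input. The means were 526 ± 51 CPM in RIP and 347 ± 59 CPM in input (SD, n = 4 each). The log2 fold change was 0.60 ± 0.22 (SE), a 1.52-fold difference with a 95% interval of 1.09 to 2.10, which is not adjusted for the number of genes. By edgeR's test the p was 0.0160 before adjustment and 0.622 after it, so the difference did not pass. Of all genes, 3.15% had an unadjusted p under 0.05 with a higher level in RIP and 4.28% with a lower one, and 12.4% had a larger log2 fold change than Uhrf1. It was the only one of the 8 genes with an unadjusted p under 0.05. The estimate was 0.49 without input 3, 0.52 within the libraries numbered 1 and 2, and 0.68 within those numbered 3 and 4. It was also 0.60 when the 10 largest rows, which include Rn45s, were left out of the library sizes.

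Groups of Uhrf1 also stayed apart when only library size was used for scaling, at 440 to 619 CPM in RIP and 297 to 429 CPM in input. Across all genes tested, 2.77% had all RIP libraries above all inputs, and 2 of the 8 genes did, Uhrf1 and Tet3. Proliferation markers, which mark cells that also use UHRF1 at replication, had summed levels of 501 to 554 CPM in RIP and 453 to 519 CPM in input (6 genes, 2 of them higher and 4 lower by estimate, 0 called). The part of these cells in the Uhrf1 values was not tested. In bulk tissue, a transcript from fewer cells and a transcript at a lower level in each cell cannot be told apart, and this holds for every value here.

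Dnmt1, the maintenance methyltransferase (chromosome 9, 20907206 to 20959888), had 261, 423, 321 and 419 CPM in RIP 1 to 4 and 204, 274, 368 and 383 CPM in the inputs. The groups overlapped, and in both of them the library numbered 1 was the lowest. Means were 356 ± 79 CPM in RIP and 307 ± 84 CPM in input, a log2 fold change of 0.21 ± 0.26 (1.16-fold, 95% interval 0.79 to 1.70). The pairs of numbers gave different estimates, 0.52 ± 0.29 within numbers 1 and 2 and -0.02 ± 0.26 within numbers 3 and 4, and neither passed (edgeR adjusted p of 0.683 and 0.980). Without input 1 the estimate was 0.06, and without input 3 it was 0.32.

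The de novo methyltransferase gene Dnmt3a (chromosome 12, 3801559 to 3914443) was the closest of the 8 to equal levels. It had 337, 349, 259 and 344 CPM in RIP 1 to 4, and 325, 349, 207 and 413 CPM in the inputs. The library numbered 3 was the lowest in both groups. The log2 fold change was -0.01 ± 0.25, and its 95% interval, 0.693-fold to 1.43-fold, bounds what a difference could be at this spread. A pair of lncRNA genes, Dnmt3aos and Gm31623, overlaps this locus, and how reads were divided there is not known. Pseudogenes named Dnmt3a-ps1 and Dnmt3l-ps1 are also annotated, and reads shared with them cannot be assigned with certainty.

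Dnmt3b, the other de novo enzyme (chromosome 2, 153649411 to 153687730), had 22.1, 30.4, 30.9 and 27.5 CPM in RIP 1 to 4, against 16.8, 14.4, 28.9 and 28.1 CPM in the inputs. Inputs 1 and 2 were the lowest of the 8 libraries, and inputs 3 and 4 lay among the RIP values. The log2 fold change was 0.33 ± 0.33 over all libraries, 0.75 ± 0.54 within numbers 1 and 2 and 0.03 ± 0.31 within numbers 3 and 4, and none of these passed. A paralogue of Dnmt3b, annotated as Dnmt3b-ps1 with the synonym Dnmt3c, was not analysed here, and whether the 2 genes share reads was not measured.

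Dnmt3l, the cofactor of the de novo enzymes (chromosome 10, 78042287 to 78063622), was near the limit of detection. It had 1, 0, 12 and 8 counts in RIP 1 to 4, against 0, 0, 0 and 2 counts in the inputs. The RIP total was 21 counts of 76452877 and the input total 2 of 77029167, a ratio of 10.6 with an exact 95% interval of 2.59 to 93.1 that covers counting error only. RIP 3 and RIP 4 held 20 of the 21 counts, so the ratio rests on these libraries and was not tested. A count of 0 allows up to 0.141 CPM in RIP 2 and from 0.116 to 0.229 CPM in inputs 1 to 3. Aire, a gene that overlaps Dnmt3l, had 0, 3, 6 and 4 counts in RIP 1 to 4 and 0 in every input, and the counts cannot show from which of the 2 genes such reads came.

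Among the erasers, Tet3, the TET enzyme of the oocyte and zygote (chromosome 6, 83362373 to 83457208), was the one whose groups did not overlap. It had 493, 409.6, 457 and 411 CPM in RIP 1 to 4, against 409, 392, 286 and 389 CPM in the inputs. The lowest RIP library and the highest input differed by less than 1 CPM, and with library size alone as the scaling the groups overlapped (405 to 483 CPM in RIP and 326 to 427 CPM in input). Means were 443 ± 40 CPM in RIP and 369 ± 56 CPM in input, and the log2 fold change of 0.26 ± 0.22 did not pass (1.20-fold, 95% interval 0.871 to 1.65, edgeR adjusted p = 0.804). Its standard error was among the smallest, with 0.641% of genes below it. Without input 3 the estimate was 0.17. B230319C09Rik, a lncRNA gene that overlaps Tet3, had 23 to 110 counts in RIP and 0 to 80 in input, few beside the 4621 to 10683 counts of Tet3.

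Tet1 (chromosome 10, 62804570 to 62887469), which encodes a TET enzyme known from primordial germ cells, had 23.0, 27.7, 29.5 and 52.9 CPM in RIP 1 to 4 and 31.8, 29.9, 37.6 and 45.0 CPM in the inputs. RIP 4 was the highest of all libraries, and the other RIP libraries were below every input. The log2 fold change was -0.12 ± 0.32 over all libraries, -0.43 without RIP 4 and 0.03 without RIP 1.

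Tet2, the remaining TET gene (chromosome 3, 133463677 to 133545136), had 40.0, 32.9, 58.1 and 63.0 CPM in RIP 1 to 4, against 36.4, 19.8, 123 and 55.6 CPM in the inputs. Input 3 alone was above every RIP library. Its log2 fold change of -0.28 ± 0.44 became 0.39 ± 0.36 without input 3, so the sign of the estimate rests on that library. Within numbers 1 and 2 it was 0.37 ± 0.47, and within numbers 3 and 4 it was -0.56 ± 0.36. The spread among inputs was 6.23-fold, the widest of the 8 genes in either group.

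Dppa3, the maternal factor that shields methylated DNA in the zygote and restrains UHRF1 in the oocyte (chromosome 6, 122626424 to 122630271), was the gene with the largest difference on the input side. It had 128, 215, 343 and 289 CPM in RIP 1 to 4, against 226, 317, 581 and 409.7 CPM in the inputs. In both groups number 1 was the lowest and number 3 the highest, and the groups overlapped, with RIP 3 above inputs 1 and 2 and RIP 4 above input 1. Means were 244 ± 93 CPM in RIP and 383 ± 151 CPM in input. The log2 fold change was -0.65 ± 0.33, a ratio of 0.635 with a 95% interval of 0.392 to 1.03, and did not pass. By edgeR's test the p was 0.0641 before adjustment and 0.689 after it. Of all genes, 13.1% had a lower log2 fold change.

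Within numbers 1 and 2 the Dppa3 estimate was -0.66 ± 0.31, and within numbers 3 and 4 it was -0.65 ± 0.28, each close to the value over all libraries (edgeR adjusted p of 0.589 and 0.501). It was -0.37 ± 0.31 without input 3 and -0.44 without RIP 1. Oocyte markers, the other transcripts of the cell that makes DPPA3, were divided, with 7 of 15 higher and 8 lower by estimate and 0 called. The part of oocyte content in the Dppa3 values was not tested. Dppa3 has an annotated pseudogene, Dppa3-ps, and reads shared with it cannot be assigned with certainty.

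**Figure D2:**
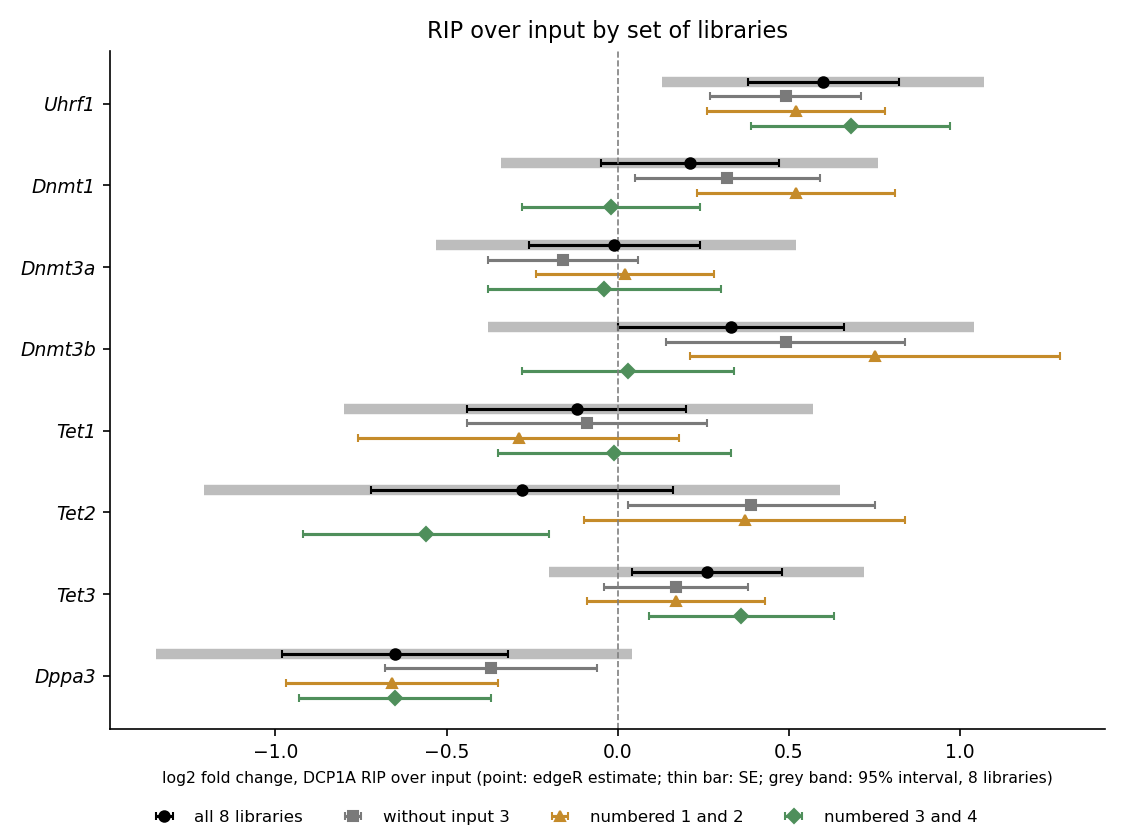
Log2 fold change of DCP1A RIP over input for the 8 genes tested, from edgeR fits on all 8 libraries, without input 3, and within each pair of library numbers. Points are estimates, thin bars are SEs and grey bands are 95% intervals of the fit on all libraries. In the 4 fits, estimates stay above 0 for Uhrf1, Dnmt3b and Tet3 and below 0 for Dppa3 and Tet1. Those of Dnmt1, Dnmt3a and Tet2 lie on both sides.

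The 9 genes were also set against each other within a library, a measure that needs no scaling between libraries. Counts depend on transcript length, so shares are compared between libraries and not between genes. Of the counts of the 9 genes, Uhrf1 took 22.3% to 28.9% in RIP and 13.8% to 23.0% in input, and Dppa3 took 6.96% to 16.4% in RIP and 13.9% to 30.7% in input. Both ranges overlapped. For every count of Uhrf1 there were 0.240, 0.410, 0.585 and 0.627 counts of Dppa3 in RIP 1 to 4, against 0.605, 0.875, 2.23 and 1.05 in the inputs. RIP 4 and input 1 were the only libraries out of order in that ratio, by a small margin. These ratios were picked after the values had been seen and were not tested. Together the 9 genes made up 0.152% to 0.233% of a RIP library and 0.147% to 0.232% of an input library.

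**Figure D3:**
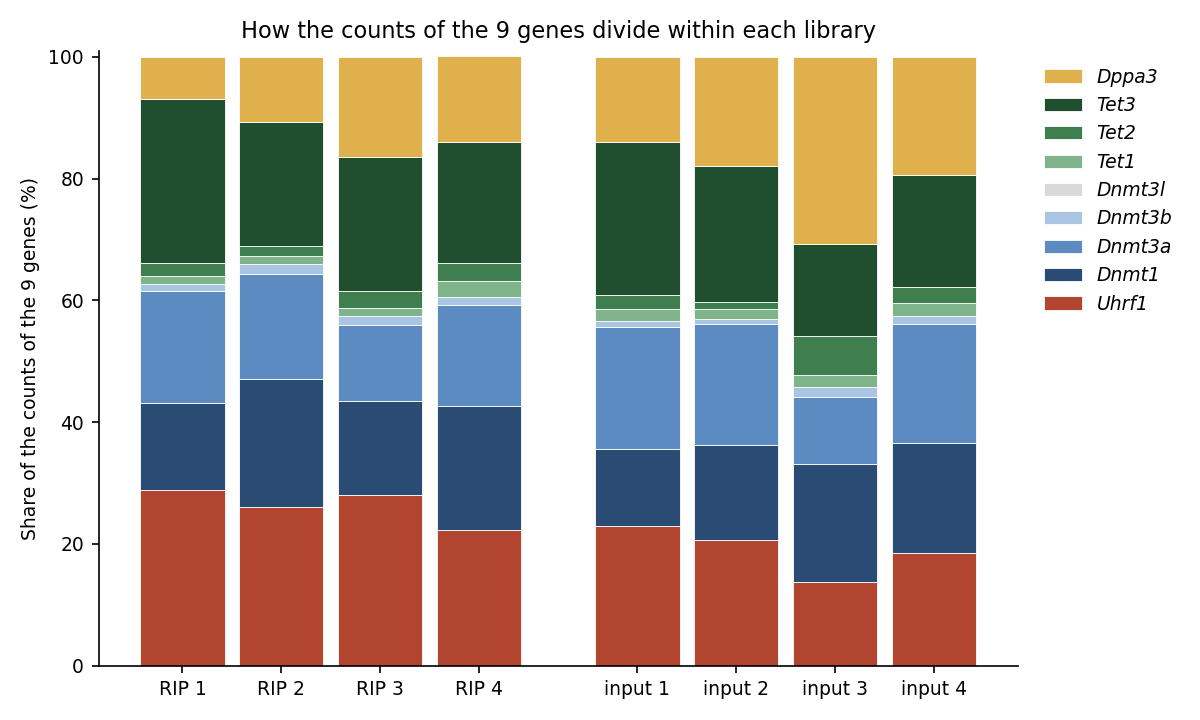
Share of each gene in the summed counts of the 9 genes, in percent, for the 4 RIP libraries on the left and the 4 input libraries on the right. Dppa3, at the top, takes 6.96% to 16.4% in RIP and 13.9% to 30.7% in input, and Uhrf1, at the bottom, 22.3% to 28.9% in RIP and 13.8% to 23.0% in input.

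Over the 8 libraries, log2 CPM of Uhrf1 and Tet3 moved together (Pearson r of 0.89, and 0.75 over the 7 libraries without input 3), as did Dnmt1 and Dnmt3b (0.79 and 0.77). Tet3 and Dppa3 moved in opposite ways (-0.80 and -0.66), and Uhrf1 and Dppa3 did so less closely (-0.64, and -0.34 without input 3). These are descriptions, since the libraries share 2 groups, their scaling factors and their depths. Among 7333 other genes at or above median expression, the highest r with Uhrf1 was that of Mcm3ap (0.990), followed by Rasd2 (0.986) and Flna (0.958), and 57 genes had r above 0.9. With Tet3 it was Noc4l (0.988), Mcm5 (0.982) and Tubgcp6 (0.980), among 200 genes above 0.9. With Dnmt1 it was Ank3 (0.967), Gemin5 (0.951) and Leng1 (0.950), among 26.

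Other genes of the methylation machinery, 57 in 4 lists, were read from the same fit. Of the 56 that were tested, 0 passed over all genes, and 2 had a higher and 2 a lower level at an unadjusted p under 0.05, 7.14% of them against 7.43% of all genes. Among 9 genes of methyl-CpG readers, 3 estimates were above 0 and 6 below, with a median log2 fold change of -0.18. Mbd4, which encodes a methyl-CpG-binding DNA glycosylase, had 8.13, 5.66, 10.1 and 11.2 CPM in RIP 1 to 4, against 21.8, 17.9, 16.8 and 16.4 CPM in the inputs. All RIP libraries were below all inputs, as for 2.52% of all genes (log2 -1.05 ± 0.39, edgeR adjusted p = 0.622). Zbtb4 (0.50 ± 0.32) and Zbtb33 (-0.52 ± 0.40), which encode zinc finger proteins that bind methylated DNA, lay on opposite sides. Each estimate leaned on 1 library: Zbtb4 was at 0.19 without RIP 1, and Zbtb33 at -0.00429 without input 3.

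Of 16 genes for the excision and repair of modified cytosine, 6 had estimates above 0 and 10 below, with a median of -0.09. The repair scaffold gene Xrcc1 averaged 143 ± 20 CPM in RIP and 99.98 ± 22.0 CPM in input (log2 0.52 ± 0.24). The stress-response genes Gadd45g and Gadd45b had log2 fold changes of -0.76 ± 0.32 and -0.61 ± 0.38. None of these passed, and the lowest adjusted p of the list was 0.627 by edgeR's test.

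Genes that supply the methyl donor had 7 estimates above 0 and 4 below, with a median of 0.25 over the 11 tested. Methionine synthase, Mtr, had 68.9, 75.3, 62.9 and 92.3 CPM in RIP 1 to 4, against 48.9, 44.1, 55.2 and 56.7 CPM in the inputs. All RIP libraries were above all inputs, as for 2.77% of all genes. The log2 fold change of Mtr, 0.55 ± 0.24, did not pass (edgeR adjusted p = 0.654). Ahcy, whose product removes the inhibitor formed by methylation reactions, was at 0.40 ± 0.27 and did not pass. Bhmt did not pass the filter on low counts.

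The 20 genes for recruitment, protection and histone crosstalk were the most even list, with 10 estimates on each side, a median of 0 within rounding, and a range of -0.47 to 0.35. The histone methyltransferase genes Ehmt2 (0.35 ± 0.31) and Setdb1 (0.32 ± 0.28) and the replication clamp gene Pcna (-0.35 ± 0.28) had the lowest p of the list, and its lowest adjusted p was 0.799. Kdm1b, a histone demethylase gene needed for methylation of imprinted loci in oocytes, averaged 385 CPM in RIP and 328 CPM in input. Its groups overlapped, with input 4 (438 CPM) above every RIP library, and it did not pass (log2 0.23 ± 0.23, edgeR adjusted p = 0.842).

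**Figure D4:**
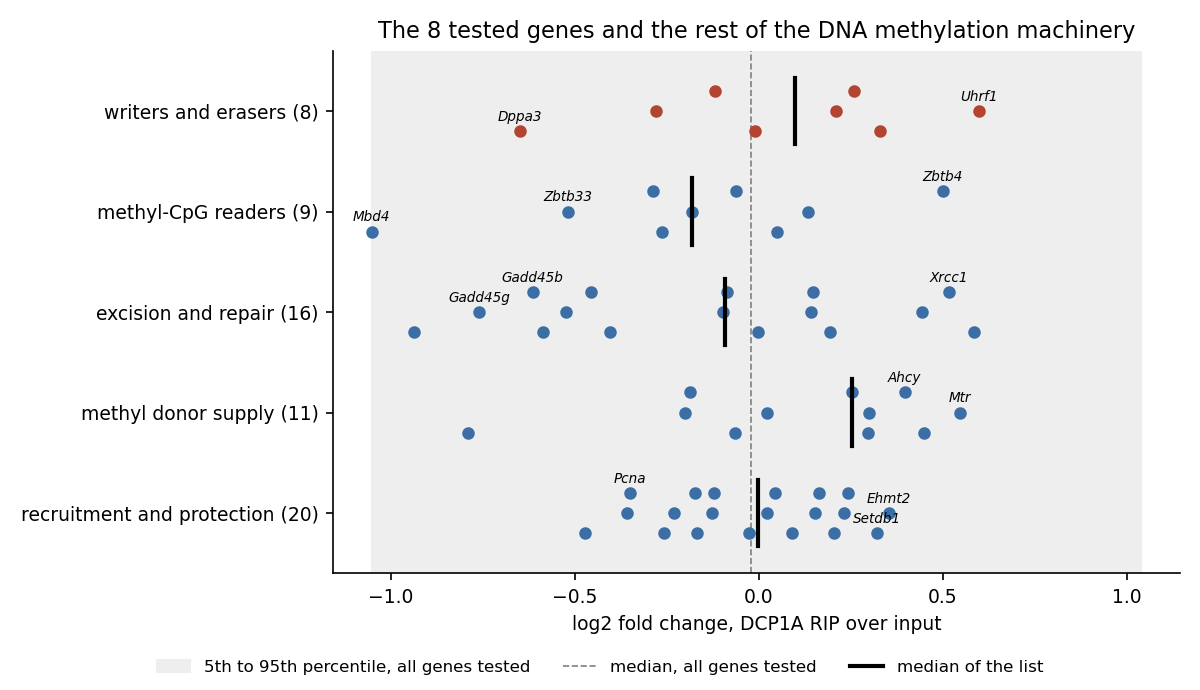
Log2 fold change of DCP1A RIP over input for the 8 tested genes (top row) and for the 4 lists of other methylation genes, with the number tested in brackets. Each point is 1 gene, black bars are list medians, and the grey area spans the 5th to the 95th percentile of all genes tested, -1.05 to 1.04. All 8 genes of the top row lie inside it.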

How the data were processed

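RNA of ovarian cortex was sequenced in 4 DCP1A RIP and 4 input libraries. Per the labels' protocols, a Magna RIP kit served for the immunoprecipitation and a SMARTer stranded total RNA kit for the libraries. The authors' deposited table holds expected counts (estimated counts per gene). Per the submitters' processing notes the build was mm10. For the aligner, the counter, the annotation and strand use, the sources used here give nothing. At most 1.85% of a library's values were not whole (tolerance 1e-09), and values were rounded.

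In R 4.3.3, edgeR 4.0.16 was run over the whole table with TMM factors, filterByExpr, a quasi-likelihood fit (robust) and a Benjamini-Hochberg threshold of 0.05, which tested 14667 genes. The SE was taken from the log2 fold change and the square root of F, and intervals use it with the fit's degrees of freedom. The fit was also run on counts simulated from its own means and dispersions. Those counts hold no number groups and no outlying library, so the run cannot show how the fit handles them. Alternatives were other scalings and filters, DESeq2 1.42.0, limma 3.58.1 (voom with sample weights), blocks and left-out libraries.

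The genes, lists and library grouping were chosen with earlier results of these data known. Named genes are the 9, the 3 of each list with the lowest p, and the 3 most correlated with each of the 3 genes of highest mean CPM. One gene that this rule names is not reported here. Mbd4, Mtr and the genes named beside them follow that rule, while Kdm1b, Aire and B230319C09Rik were chosen after their values were seen, the last pair as overlapping rows. All 9 matched the RefSeq gene table (GRCm38.p6) by symbol. Use of molecular identifiers is not stated, and intervals from counts cover counting error only.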

Additional observations from a re-analysis of the deposited data

Results flagged for a closer look

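Of 40 sets of 4 libraries examined (8 tested genes and 12 named list genes, in RIP and in input), 3 held a library far from the other 3 by Dixon's criterion on the gap to the nearest library, and chance gives about 1 in 20. Dnmt3a had 259 CPM in RIP 3, against 337 to 349 CPM in the other RIP libraries. Tet3 had 286 CPM in input 3, against 389 to 409 CPM in the other inputs. Zbtb4 had 154 CPM in RIP 1, against 71.5 to 84.7 CPM in the other RIP libraries.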

How the results depend on the processing

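None of the 8 tested genes and none of the 56 list genes passed under any of the 24 alternatives, and the lowest adjusted p of Uhrf1 and Dppa3 were 0.147 and 0.126. Uhrf1 ranged from 0.43 to 0.72 and Dppa3 from -0.86 to -0.37 on the log2 scale, and Dnmt3b and Tet3 also kept their sign. With the replicate number as a block (replicate block) Uhrf1 was at 0.61 (edgeR adjusted p = 0.196) and Dppa3 at -0.66 (0.126), with 55 genes called in all against 6. Counts of called genes were also 83 by DESeq2, 20 by limma voom, 55 with the number groups as a block and 27 within numbers 1 and 2, and from 1 to 17 without 1 library or number, with 17 without RIP 1 and 15 without input 3. The cause was not tested. Of 192 values of the 8 genes, 14 had the other sign. Dnmt1 was at -0.02 within numbers 3 and 4. Dnmt3a was at 0.03 with upper quartile scaling, 0.00279 with no filter, 0.03 with the replicate block, 0.02 within numbers 1 and 2, and -0.16 to 0.14 with libraries left out. Left-out libraries gave -0.43 to 0.03 for Tet1 and -0.56 to 0.39 for Tet2, which was 0.37 within numbers 1 and 2. Zbtb33 was at 0.05 within numbers 1 and 2 and ranged from -0.74 to 0.06 with libraries left out. Deviations of same-numbered RIP and input libraries from their group means correlated at 0.162, 0.091, 0.178 and 0.118. RIP 1, RIP 2 and RIP 3 correlated best with the input of their own number, and RIP 4 with input 3. The labels do not state whether the numbers are pairs. The main fit did not take them as pairs, while the replicate block did. RIP was above the input of its own number in 4 of 4 numbers for Uhrf1 and Tet3 and in 0 for Dppa3. For the other tested genes this held in 1 to 3 numbers. These counts were not set against all genes and were not tested, and for Uhrf1 and Tet3 they follow from groups that do not overlap. Levels per transcript length were not run, since no coding length was at hand, and Dnmt3l was read as counts and as CPM on library size, which reached 0.594 in RIP 3. At its counts of 0 to 12 a library, Dnmt3l allowed no test.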

Other observations

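Markers of cells other than oocytes and granulosa cells were at low levels, apart from stroma. Summed stromal markers (8 genes) were at 4398 to 8073 CPM in RIP and 4273 to 6703 CPM in input. The 5 immune markers measured summed to 24.8 to 37.3 CPM in RIP and 13.4 to 21.0 CPM in input. These sums did not overlap, and this was the only marker list for which that held. Of single genes 2.77% had all RIP libraries above all inputs, and the share among sums of several genes was not measured. Of the immune markers tested, 4 of 4 were higher by estimate and 0 were called by edgeR. Surface epithelium markers (5 genes) were at 85.7 to 194 CPM in RIP and 79.9 to 108 CPM in input, with 4 of 4 tested genes higher. By estimate, 3 of 3 theca and steroidogenic markers, 1 of 5 endothelial, 4 of 8 stromal and 0 of 1 erythroid markers were higher, and 0 were called.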
